A study of Homo sapiens with 3 samples.

Results

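The 10 genes described here are markers by which stem-like and progenitor cells are recognised in liver and in liver cancer, namely CD44, CD24, PROM1, EPCAM, ANPEP, SOX9, SALL4, LIN28B, THY1 and KIT. They were taken by gene symbol, without a threshold on any measured value, from the 16149 genes listed in at least 1 of 3 mRNA libraries. Of the 10 genes, 8 were listed in at least 1 library, 5 in all 3 libraries, and 2, PROM1 and KIT, in none. A gene not listed in a library was taken as 0.

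The libraries came from 3 cultured human HCC lines with 1 library each. The parent was labelled HCCLM3, a line established from human hepatocellular carcinoma and given a low metastasis ability by the labels, while the methods of the study name a derivative that carries red fluorescent protein and call its metastatic potential high. Subclone 1 was labelled as specific to the lung, and subclone 2 as able to reach lung and celiac lymph node. Per the methods, such monoclones were each grown from a single cell of lung or lymph node metastases that HCCLM3-R had formed in nude mice, so each subclone stands for 1 clone, and the sequenced clones were not named. All 3 lines were grown in DMEM, and no drug was named for any of them. Whether the sequenced parent carried the fluorescent protein cannot be told from the label, so its presence may differ between parent and subclones.

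Stem and progenitor markers of the liver fall into surface proteins and nuclear or RNA-binding regulators. CD44 is a receptor for hyaluronan, CD24 is a small, heavily glycosylated protein anchored by a lipid, PROM1 encodes the pentaspan protein CD133, EPCAM is an epithelial adhesion protein of hepatoblasts and bile duct cells, ANPEP encodes the membrane aminopeptidase CD13, THY1 is the anchored glycoprotein CD90 and KIT is the receptor of stem cell factor. SOX9 is a transcription factor of the bile duct and of liver progenitors, SALL4 is a zinc-finger factor of fetal liver and embryonic stem cells, and LIN28B is a fetal RNA-binding protein that blocks the processing of let-7 microRNAs. Different HCC lines carry different sets of these markers, and a line is not required to have them all.

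RPKM is the number of reads of a gene divided by the length of the gene and by the size of the library, so that levels can be compared between genes. The totals recovered from the RPKM lay between 4488825 and 4725150 reads. Intervals of a level are exact Poisson intervals and those of a ratio are Clopper-Pearson intervals, both at 95%. They cover counting error only. With 1 library per line nothing was tested between cell lines, and every difference compares libraries. For a count of 0 the limit given is the RPKM of 3 reads in place of a Poisson interval, and no fold is given where both libraries had 3 reads or fewer. Log2 ratios were taken on RPKM plus 0.1, which understates the change of low genes. Fewer cells with an mRNA and less mRNA per cell cannot be told apart in such bulk libraries.

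CD44, ANPEP and SOX9 were the markers with a clear mRNA level in HCCLM3 and its subclones, in this order in each library, and their counting intervals did not overlap within a library. CD24 was far lower, and the other 6 markers had 3 reads or fewer in every library. The mRNA profile was thus high for CD44 in all 3 libraries and for ANPEP in the subclones, while ANPEP stood at percentile 70.8 of listed genes in the parent. It was near or below the limit of detection for PROM1, EPCAM, THY1 and KIT.

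**Figure D1:**
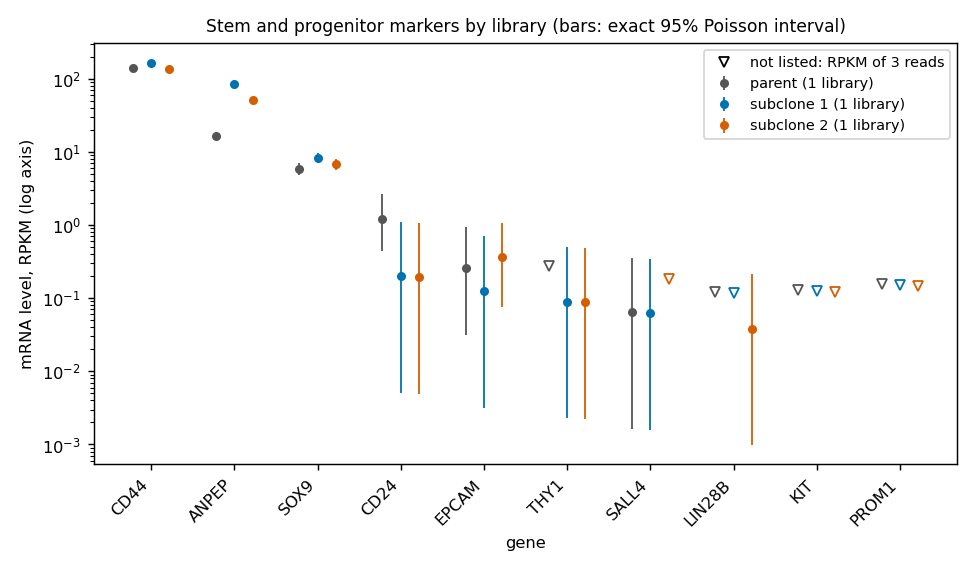
mRNA level in RPKM on a log axis for the 10 markers, with 1 point per library and bars for the exact 95% Poisson interval; open triangles mark the RPKM of 3 reads where the gene was not listed. CD44 lies between 136.3 and 164.8 RPKM in the 3 libraries, ANPEP goes from 16.5 RPKM in the parent to 85.6 RPKM in subclone 1, and the 6 genes on the right stay below 0.37 RPKM.

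ANPEP was the marker whose ratios to the parent had intervals farthest from no change. CD13, its product, removes amino acids from the amino end of peptides at the cell surface, is abundant on bile canaliculi and intestinal epithelium, and has been used to mark slowly dividing HCC cells. The gene, Entrez number 290, lies on the minus strand of chromosome 15 from 89784889 to 89815401 in GRCh38. The parent had an mRNA level of 16.5 RPKM (14.6 to 18.6, 277 reads). In subclone 1 it was 85.6 RPKM (81.3 to 90.1, 1476 reads) and in subclone 2 it was 50.6 RPKM (47.4 to 54.1, 895 reads). Both subclones were above the parent and subclone 1 was the highest, with intervals that did not overlap between any of the libraries. Subclone 1 exceeded the parent 5.19-fold (4.56 to 5.92) and subclone 2 exceeded it 3.07-fold (2.68 to 3.53). The log2 ratios of 2.37 and 1.61 stood at percentiles 99.2 and 97.9 of the 11370 genes that averaged 1 RPKM or more. Subclone 2 had 0.592 times the level of subclone 1 (0.544 to 0.643), at percentile 2.57 for this pair. Among listed genes, ANPEP held rank 4298 in the parent, rank 782 in subclone 1 and rank 1465 in subclone 2.

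ANPEP is transcribed from a distal start used in myeloid cells and fibroblasts and from a proximal start used in epithelia. The RPKM sums both and cannot say which was used. The 250 bases before each start in RefSeq (GRCh38.p14, minus strand) are printed because of this difference in ANPEP. CpG dinucleotides are in capitals.
ANPEP distal, chr15:89814853-89815102: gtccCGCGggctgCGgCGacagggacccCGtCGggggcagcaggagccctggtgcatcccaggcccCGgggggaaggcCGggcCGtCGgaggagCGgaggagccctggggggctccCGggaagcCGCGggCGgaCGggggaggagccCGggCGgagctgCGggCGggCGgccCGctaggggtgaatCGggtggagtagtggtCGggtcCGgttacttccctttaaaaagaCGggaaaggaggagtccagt
ANPEP proximal, chr15:89806629-89806878: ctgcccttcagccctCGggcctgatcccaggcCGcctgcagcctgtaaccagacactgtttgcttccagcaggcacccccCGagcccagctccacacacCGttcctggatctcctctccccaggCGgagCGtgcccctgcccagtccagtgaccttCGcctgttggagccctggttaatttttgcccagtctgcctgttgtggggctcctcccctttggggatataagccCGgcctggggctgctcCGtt
The distal window held 26 CpG and 74.0% G and C, and the proximal one 9 CpG and 64.4%, where the median of the 35116 RefSeq windows was 11 CpG and 58.0%. The proximal window also held GTTAAT, the core of the sequence bound by the liver and gut factor HNF1, in the gene's own direction.
ANPEP proximal, chr15:89806688-89806717, GTTAAT in capitals: gttggagccctgGTTAATttttgcccagtc
On either strand, GTTAAT was found in 6.23% of all such windows, and TATAAA, which was in neither ANPEP window, in 10.7%. The window of KIT, a gene listed in no library, held GTTAAT too. A match of letters is a description and not a binding site.

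**Figure D2:**
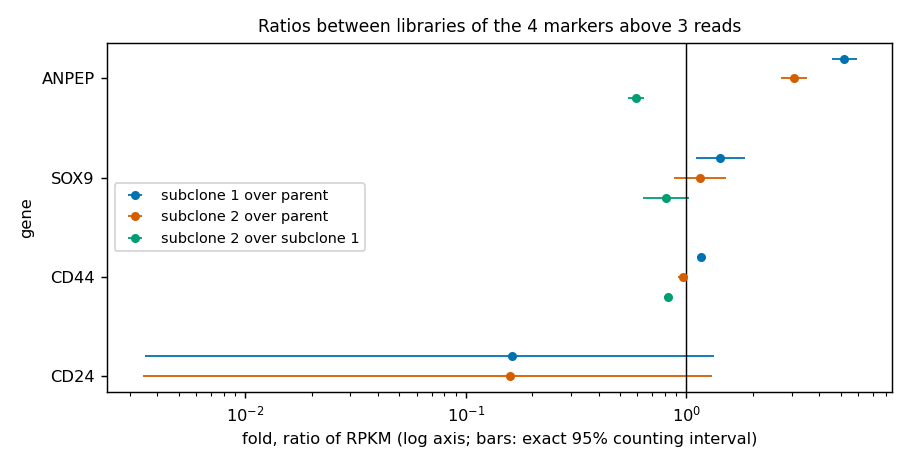
Ratios of RPKM between libraries on a log axis for the 4 markers with more than 3 reads in a library, with bars for the exact 95% counting interval; the vertical line marks no difference. ANPEP is the marker whose ratios stand clear of 1 in all 3 comparisons by the widest margin (5.19, 3.07 and 0.592), while the bars of CD24 span 1.

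CD44 was the most abundant of the markers. It binds hyaluronan in the matrix, is tethered to the actin cytoskeleton by ezrin, radixin and moesin, and marks mesenchymal and stem-like cells in many carcinomas. The gene, Entrez number 960, lies on the plus strand of chromosome 11 from 35138870 to 35232402 in GRCh38. Its level was 141.7 RPKM in the parent (137.2 to 146.4, 3657 reads), which placed it at rank 423 among listed genes. In subclone 1 it was 164.8 RPKM (160.0 to 169.8, 4367 reads) and in subclone 2 it was 136.3 RPKM (131.9 to 140.7, 3701 reads). The parent and subclone 2 had overlapping intervals and subclone 1 lay above both. Subclone 1 was 1.16-fold above the parent (1.11 to 1.22), a log2 ratio of 0.22 at percentile 69.9. The ratio of subclone 2 to the parent was 0.961 (0.918 to 1.01), which includes 1, and its log2 ratio of -0.06 became 0.01 when libraries were divided by GAPDH. Between the subclones the ratio was 0.827 (0.791 to 0.864). The RPKM is per gene, so that the standard form and the forms with variant exons were not told apart.

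SOX9 was at an intermediate level. It is switched on in bile duct cells and in hepatocytes that take on progenitor traits, and lies on the plus strand of chromosome 17 from 72121020 to 72126420 in GRCh38. The parent had 5.85 RPKM (4.78 to 7.08, 104 reads), subclone 1 had 8.32 RPKM (7.05 to 9.75, 152 reads) and subclone 2 had 6.73 RPKM (5.61 to 8.01, 126 reads). Subclone 1 was the highest, and its interval overlapped slightly with that of the parent and widely with that of subclone 2. The fold over the parent was 1.42 in subclone 1 (1.10 to 1.84), with an interval just above 1, and 1.15 in subclone 2 (0.881 to 1.51), where no difference was detectable at this depth. The ratio of the subclones was 0.809 (0.633 to 1.03).

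CD24 had lower values in both subclones than in the parent, within counting error for the reads taken here. It is a ligand of the inhibitory receptor SIGLEC10 on macrophages and of P-selectin, and was proposed as a marker of tumour-initiating cells in HCC. The gene, Entrez number 100133941, lies on the minus strand of chromosome 6 from 106969831 to 106975627 in GRCh38. Its place in hg19, the build named for the files, was not checked, so the locus behind these reads is not known. The parent had 1.22 RPKM (0.447 to 2.65) from at least 6 reads. Subclone 1, at 0.198 RPKM (0.00501 to 1.10), and subclone 2, at 0.193 RPKM (0.00488 to 1.07), each had at least 1 read. The intervals of the parent and the subclones overlapped. The ratios to the parent were 0.162 in subclone 1 (0.00353 to 1.34) and 0.158 in subclone 2 (0.00344 to 1.31), so that with these reads the lower level was within counting error. These reads imply a length of 1097 bases. With a length of 2194 bases the reads would be 12, 2 and 2, and the intervals would end at 0.729 and 0.711. Which length was used was not stated. RefSeq names 5 pseudogenes of CD24, whose near-identical reads may have been split or dropped, so the level of CD24 is uncertain.

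EPCAM, the surface protein of hepatoblasts that also served in the study's real-time PCR panel, was barely detected in these libraries. The study lists its primers among those of genes that it reports as detected by PCR in its subclonal cells. Its PCR level was not compared with the reads given here. The parent, with 2 reads, had 0.257 RPKM (0.0312 to 0.930). Subclone 1, with 1 read, had 0.125 RPKM (0.00317 to 0.698), and subclone 2, with 3 reads, had 0.367 RPKM (0.0756 to 1.07). All 3 intervals overlapped, and no fold is given because no library had more than 3 reads. The primer pair of the study is shown because it defines the part of the EPCAM transcript that PCR measured.
EpCAM-F: atcgtcaatgccagtgta
EpCAM-R: ctgccttcatcaccaaac
Both primers of 18 bases matched 5 GENCODE transcripts of EPCAM and those of no other gene without mismatch. In the longest of these transcripts the product has 87 bases and runs from exon 2 to exon 3 of 9, at chr2:47373514-47373837 on the plus strand of GRCh38.

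The other surface markers were at or below the limit of detection. THY1, a marker of mesenchymal and stellate cells as well as of stem-like HCC cells, was not listed in the parent, while 1 read in subclone 1 gave 0.0899 RPKM and 1 read in subclone 2 gave 0.0877 RPKM. A count of 0 in the parent allows up to 0.277 RPKM, above the levels in both subclones. PROM1 was not listed in any library, which at the length of its longest GENCODE transcript of 4349 bases allows up to 0.154 RPKM in the parent, 0.150 RPKM in subclone 1 and 0.146 RPKM in subclone 2. For KIT, also not listed, the limits at a length of 5186 bases were 0.129, 0.125 and 0.122 RPKM. These limits lie far below the levels of CD44, ANPEP and SOX9 in the same libraries.

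The fetal regulators were near 0 as well. SALL4 had 0.0639 RPKM in the parent and 0.0622 RPKM in subclone 1, at least 1 read in each, and was not listed in subclone 2, where up to 0.182 RPKM remains possible. These reads imply a length of 3487 bases. With a length of 6974 bases the reads would be 2 in each of the parent and subclone 1, and the limit in subclone 2 would be lower. LIN28B had 1 read in subclone 2 (0.0385 RPKM) and was not listed in the parent or subclone 1, which allows up to 0.121 and 0.118 RPKM. No order among EPCAM, THY1, SALL4, LIN28B, PROM1 and KIT can be read from these counts.

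RefSeq promoter windows were at hand for 6 of the 10 markers (CD44, CD24, PROM1, ANPEP, LIN28B and KIT). The single window of CD44 held 15 CpG in 250 bases, more than in 57.1% of all windows. The single window of KIT held 34, more than in 93.2%. The 4 PROM1 windows held 5 to 26 CpG. The first LIN28B window held 33 CpG and the second held 6. The 3 CD24 windows held 17 to 27 CpG. CpG-rich windows were thus found at the unlisted KIT and in part of the PROM1, LIN28B and CD24 windows. The distal start of ANPEP, whose use is unknown, was CpG-rich too (26 CpG). The window of CD44 was near the median of 11 CpG. The windows of CD44 and KIT (GRCh38.p14, plus strand) are printed as the most abundant marker and an unlisted one, with CpG in capitals.
CD44, chr11:35138921-35139170: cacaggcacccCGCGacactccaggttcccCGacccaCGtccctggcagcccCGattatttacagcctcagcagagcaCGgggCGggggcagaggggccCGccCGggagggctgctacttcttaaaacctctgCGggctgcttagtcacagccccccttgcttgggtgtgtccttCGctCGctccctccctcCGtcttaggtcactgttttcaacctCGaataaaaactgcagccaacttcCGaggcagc
KIT, chr4:54657707-54657956: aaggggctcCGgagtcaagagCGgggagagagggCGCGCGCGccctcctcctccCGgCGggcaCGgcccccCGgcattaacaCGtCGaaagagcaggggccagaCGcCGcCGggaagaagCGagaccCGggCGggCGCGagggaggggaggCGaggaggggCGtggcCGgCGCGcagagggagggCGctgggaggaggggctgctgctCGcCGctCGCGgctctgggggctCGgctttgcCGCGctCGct

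Counted over the 10 markers on the scale of RPKM plus 0.1, each subclone had 1 gene (ANPEP) above the parent and 1 (CD24) below it by 2-fold or more. Among the 11370 genes that averaged 1 RPKM or more, 4.90% exceeded the parent in subclone 1 by that much and 1.82% fell short of it, against 5.33% and 2.16% for subclone 2. Only 3 of the markers, CD44, ANPEP and SOX9, passed that filter. Over all 16149 listed genes, with the many low ones such as CD24, the shares were 9.43% and 5.47% for subclone 1 and 9.62% and 5.83% for subclone 2. Between the subclones, EPCAM was the 1 marker whose level in subclone 2 was 2-fold or more above subclone 1, with 3 reads against 1, and for 0 markers was it below by as much. The shares there were 1.42% and 1.39% of the filtered genes and 5.21% and 5.59% of all listed genes. The median log2 ratio of the 10 markers was 0.0 in subclone 1 and 0.10 in subclone 2 over the parent and -0.02 between the subclones, beside 0.00, 0.04 and 0.03 for the 11370 genes. The medians of the 10 markers say little about change, since 6 of them had 3 reads or fewer in every library. A gene unlisted in both libraries gives a ratio of exactly 0, and the 11370 genes exclude such genes. For the 3 markers that passed the filter the medians, given as a description, were those of SOX9, at 0.50, 0.20 and -0.30. A count of 1 in 10 is too small to set the markers apart from these shares.

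**Figure D3:**
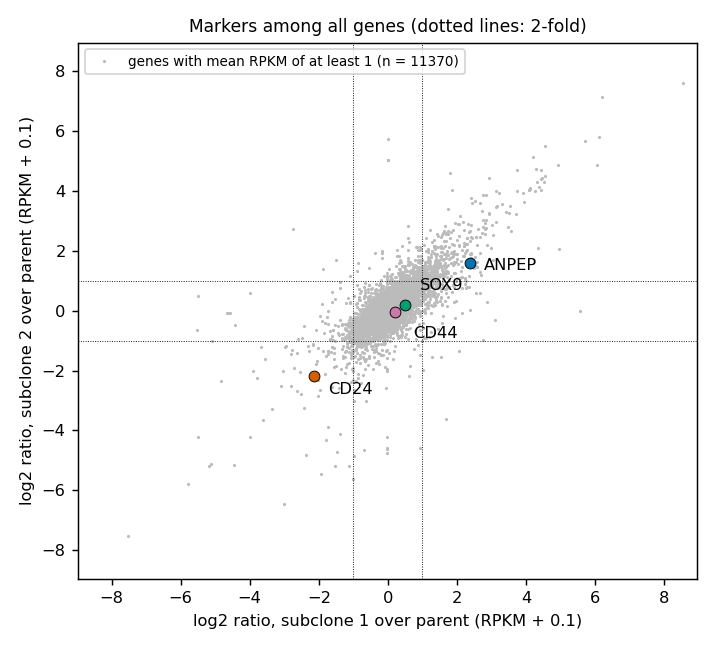
Log2 ratio over the parent in subclone 1 (horizontal) and subclone 2 (vertical), on RPKM plus 0.1, for the 11370 genes averaging 1 RPKM or more (grey) and for 4 markers; dotted lines mark 2-fold. ANPEP stands at 2.37 and 1.61 and CD24, which is below the filter, at -2.15 and -2.17, while SOX9 (0.50 and 0.20) and CD44 (0.22 and -0.06) lie within the bulk. The axes share the parent library.

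Genes whose products bind or process the markers were mostly present. Of the 21 ligands and partners, 16 averaged 1 RPKM or more. By the 2-fold threshold, 2 of these were above the parent and 0 below it in subclone 1, while 1 was above and 2 were below it in subclone 2. For this and the lists below, the shares of all 11370 genes averaging 1 RPKM or more were 4.90% above and 1.82% below in subclone 1. They were 5.33% and 2.16% in subclone 2. No list was tested against these shares, and a count of 0 in so few genes says little about a list. SPP1, which encodes the secreted CD44 ligand osteopontin, had 602.8 RPKM in the parent, 390.1 RPKM in subclone 1 and 199.0 RPKM in subclone 2. It was lower in both subclones, at 0.647 (0.618 to 0.678) and 0.330 (0.311 to 0.350) times the parent. CLDN7, a tight-junction protein that associates with EpCAM, went from 1.43 RPKM in the parent to 3.74 RPKM in subclone 1 and 6.68 RPKM in subclone 2, a fold of 2.62 (1.35 to 5.40) and 4.68 (2.55 to 9.26). ITGB3, an integrin chain that can bind THY1, had 0.819 RPKM in the parent, 2.57 RPKM in subclone 1 and 0.216 RPKM in subclone 2, so that the subclones lay on opposite sides of the parent.

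The linkers of CD44 to actin were abundant. MSN, which encodes moesin, had 369.9, 304.2 and 261.3 RPKM in the parent, subclone 1 and subclone 2. EZR, which encodes ezrin, had 116.7, 128.8 and 141.4 RPKM, and RDX, which encodes radixin, 60.2, 89.9 and 67.2 RPKM. The hyaluronan synthases HAS2 and HAS3 had 4.70 to 9.47 RPKM over the 3 libraries, and KITLG, the ligand of the unlisted KIT, 18.2 to 32.4 RPKM. None of these was 2-fold apart from the parent in either subclone.

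Relatives of the markers were mostly low. Of 16 genes of the same families or of like function, 9 were not listed in any library, and 3 averaged 1 RPKM or more. None of the 3 was 2-fold apart, which says little for so few genes. DPP4, a membrane peptidase like CD13 that is also known as CD26, had 30.5 RPKM in the parent, 15.4 RPKM in subclone 1 and 16.0 RPKM in subclone 2, where ANPEP was higher. Its ratios of 0.504 (0.435 to 0.584) and 0.524 (0.453 to 0.605) came close to 2-fold lower. The aminopeptidase LNPEP had 4.39, 4.85 and 4.78 RPKM, with both intervals including 1, and the aminopeptidase ENPEP had 0.127 to 0.223 RPKM. SALL1, a relative of SALL4, had 8.27, 6.44 and 6.69 RPKM.

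Genes on the LIN28B and let-7 axis were present in lines that had almost no LIN28B reads. All 14 genes of the list were listed, 12 averaged 1 RPKM or more, and none of the 12 was 2-fold apart from the parent in either subclone. With shares of 1.82% to 5.33% in either direction among all filtered genes, this says little about the list. HMGA1, a chromatin protein, had 290.0 RPKM in the parent, 222.5 RPKM in subclone 1 and 286.4 RPKM in subclone 2. HMGA2, a classical let-7 target, had 22.9, 21.2 and 19.9 RPKM, and the fetal RNA-binding protein gene IGF2BP3 had 41.6, 47.3 and 45.1 RPKM. MYC, which encodes a growth-promoting transcription factor, was lower in both subclones, with 88.3, 54.7 and 54.4 RPKM and ratios of 0.620 (0.558 to 0.687) and 0.617 (0.556 to 0.683). LIN28A, the paralogue of LIN28B, had 0.06 to 0.22 RPKM.

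Other stem and progenitor genes gave a mixed profile. Of 23 genes, 20 were listed and 14 averaged 1 RPKM or more. By the 2-fold threshold, ICAM1 was above and LGR5 below the parent in subclone 1, and in subclone 2 LGR5 was below and 0 genes were above it. ALDH1A1, a retinal-oxidising enzyme used to sort stem-like cells, was the most abundant of the list with 813.1 RPKM in the parent, 907.4 RPKM in subclone 1 and 760.2 RPKM in subclone 2. FOXM1, a factor of dividing cells, had 109.6, 92.3 and 102.6 RPKM, and ALCAM, an adhesion molecule, had 96.8, 78.7 and 95.1 RPKM. ICAM1, an adhesion molecule induced by inflammatory signals, had 39.0, 84.5 and 75.8 RPKM, a fold of 2.16 (1.96 to 2.39) in subclone 1 and 1.94 (1.75 to 2.15) in subclone 2. LGR5, a Wnt-pathway receptor of stem cells, had 8.66 RPKM in the parent (at least 56 reads), 0.301 RPKM in subclone 1 (at least 2 reads) and 0.147 RPKM in subclone 2 (at least 1 read). LGR5 was lower in both subclones, at 0.0348 (0.00411 to 0.132) and 0.0170 (0.000422 to 0.0985) times the parent, with intervals for these smallest reads. The fetal liver genes GPC3 and DLK1 and the progenitor marker CD34 were not listed, and AFP, the fetal albumin-like protein, had 2.41, 4.16 and 4.27 RPKM.

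**Figure D4:**
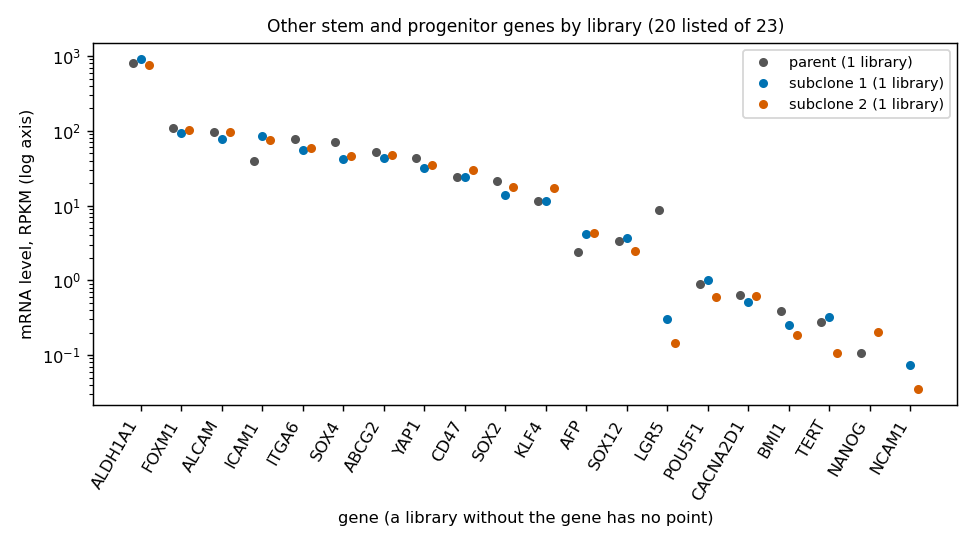
mRNA level in RPKM on a log axis for the 20 listed of 23 other stem and progenitor genes, with 1 point per library and no point where a gene was not listed. ALDH1A1 lies between 760.2 and 907.4 RPKM, and LGR5 stands at 8.66 RPKM in the parent and at 0.301 and 0.147 RPKM in the subclones.

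The labelled cell type was checked against defining markers. Of 10 hepatocyte genes, 4 averaged 1 RPKM or more, and the summed level of all 10 was 22.2 RPKM in the parent, 107.3 RPKM in subclone 1 and 97.3 RPKM in subclone 2. ALB, which encodes albumin, made up most of the difference, with 2.46, 49.5 and 68.8 RPKM. HNF4A, the master factor of hepatocytes, had 11.7, 11.9 and 16.0 RPKM. TF, the iron carrier of plasma, had 5.71, 30.3 and 5.88 RPKM, and FGB, a fibrinogen chain, had 1.66, 14.5 and 5.60 RPKM. APOA2 was not listed and TTR, APOA1, SERPINA1, ASGR1 and CPS1 stayed below 1 RPKM, so most markers of mature hepatocytes were at or near 0. ANPEP was higher in the same subclones as ALB, and the part of a hepatocyte-like state in this was not tested.

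Bile duct genes shared with progenitors were partly present. Of 6 cholangiocyte genes, 4 were listed, CFTR not among them, and the summed level was 322.0, 484.0 and 427.2 RPKM. KRT19, a keratin of bile ducts and progenitors, had 178.1, 229.0 and 229.4 RPKM. ANXA4, a membrane-binding annexin, had 90.4, 191.3 and 132.8 RPKM, SLC4A2, an anion exchanger, had 39.2, 60.2 and 59.0 RPKM, and KRT7, a second duct keratin, had 14.4, 3.47 and 6.04 RPKM. By 2-fold or more, ANXA4 was above the parent in subclone 1 and KRT7 was below it in both subclones.

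Markers of cells that could accompany tumour cells were mostly low. Of 9 fibroblast or stellate genes, 5 were listed, PDGFRA, PDGFRB, ACTA2 and FAP were not, and the sum was 15.7, 31.1 and 24.3 RPKM. This sum followed LUM (10.1, 24.0 and 21.0 RPKM) and DCN (0.773, 4.42 and 2.75 RPKM), proteoglycans of the matrix, and was higher in the subclones, as was ANPEP, while COL3A1 was lower (4.42, 2.21 and 0.463 RPKM) and COL1A1 had 0.338, 0.403 and 0.0357 RPKM. The part of such cells in the level of ANPEP was not tested. All 5 endothelial genes were listed, with sums of 5.11, 11.9 and 7.60 RPKM that came mostly from PECAM1 (3.33, 9.81 and 4.46 RPKM) and KDR (1.36, 1.93 and 3.08 RPKM), while CDH5, VWF and TEK stayed below 0.38 RPKM. Of 6 blood cell genes, CD68, a lysosomal protein also made by tumour cells, had 75.3, 112.3 and 99.6 RPKM, PTPRC, a surface protein of white blood cells, had at most 1 read in a library, CD14 had 1, 8 and 0 reads, and CD3D and HBB were not listed. Of 4 mast cell genes, which would accompany KIT, MS4A2 had 1 read in subclone 2 and the others were not listed.

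The genes most like ANPEP were sought among the 8211 genes averaging 5 RPKM or more, by the distance between the pairs of log2 ratios over the parent. With 3 libraries such likeness is a description of 2 values that share the parent. TDO2, the tryptophan-degrading dioxygenase of liver, was nearest at a distance of 0.12, at 3.51, 20.1 and 10.7 RPKM in the parent, subclone 1 and subclone 2. PTGIS, the prostacyclin synthase, followed at 0.23 (4.61, 28.3 and 14.6 RPKM), and PRAP1 at 0.25 (2.48, 15.3 and 7.08 RPKM). For SOX9 the nearest genes were NLK, a protein kinase, LTBP3, which binds latent TGF-β, and CALU, a calcium-binding protein, at 0.0097, 0.015 and 0.028, in a part of the plot where genes are crowded.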

How the data were processed

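The authors sequenced mRNA from 3 HCC lines, with 1 library each made from Trizol-extracted RNA with an Illumina TruSeq kit, and deposited RPKM values per gene by Entrez number and symbol. The genome build hg19 is named in the submitters' processing notes. The aligner, the counter, the gene models and whether strand or shared reads were considered are not given in the sources used here. Each library lists genes with RPKM above 0. No symbol had more than 1 row.

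Log2 ratios were computed from RPKM plus 0.1. Genes averaging 1 RPKM or more formed the main background and 2-fold the threshold. No test was made, because each line has 1 library. Library totals were recovered from the RPKM, since a gene's values stand in ratios of whole reads, and were 4488825, 4609696 and 4725150 reads for parent, subclone 1 and subclone 2. Under these totals 79.2% of 2000 genes had a length within 10% of a GENCODE transcript, against 36.3% with doubled and 17.0% with halved totals. A gene's smallest whole reads and length were taken where the length lay between 0.5 times the median and 1.5 times the longest transcript, and otherwise a multiple within 10% of a transcript, which resolved 98.0% of the filtered genes. Reads sharing a divisor can be understated, which widens intervals. The procedure was also run on data simulated from the totals and lengths it had recovered, for resolved genes only. Such a run cannot check whether the lengths taken for the real genes were right.

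The markers, lists and rules were chosen with earlier results of these data known. From each list the 4 most abundant genes and those averaging 1 RPKM or more that were 2-fold apart from the parent in a subclone were named. HAS2, HAS3, KITLG, LIN28A, AFP and genes at or near 0 were named after their values were seen. Single members of some lists are not reported here. Places come from GENCODE on GRCh38 and promoter windows from RefSeq on GRCh38.p14, other builds than that of the files. Alternatives were pseudocounts of 0.01 and 1, 5 rescalings, 1.5-fold, no filter, a minimum mean of 5 RPKM and, for the median of the markers, those averaging 1 RPKM or more. Python 3.11.15, numpy 2.4.6, pandas 2.3.3, scipy 1.17.1 and matplotlib 3.10.9 were used.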

Additional observations from a re-analysis of the deposited data

Results flagged for a closer look

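Each result here is a gene whose subclones lay on opposite sides of the parent. Such a difference between single libraries was not tested. CD44 had a log2 ratio over the parent of 0.22 in subclone 1 and -0.057 in subclone 2, and the interval of the latter includes no change. ITGB3, an integrin chain that can bind THY1, had log2 ratios of 1.54 and -1.54, with 18, 58 and 5 reads in the parent, subclone 1 and subclone 2. ALDH1A1, a marker enzyme of stem-like cells, had log2 ratios of 0.16 and -0.10, and the folds of 1.12 (1.08 to 1.15) and 0.935 (0.907 to 0.963) excluded 1 by counting error. These intervals do not cover the choice of scaling, and ALDH1A1 was not recomputed under other scalings. ACTB, a gene used for rescaling, itself had a log2 ratio of 0.13 in subclone 1. The opposite sides of ALDH1A1 may therefore depend on the scaling.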

How the results depend on the processing

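Of the 77 values of the 11 marker log2 ratios under 7 alternatives, 73 lay within the counting interval of the reported value. No ratio of 2-fold or more, those of ANPEP and CD24 over the parent, changed sign. CD44 in subclone 2 over the parent went from -0.06 to 0.01 with GAPDH, within its interval. The intervals of CD24, such as -8.15 to 0.42 in subclone 1, are too wide for its values to test the processing. Values outside their intervals came from division by ACTB or GAPDH. ACTB gave 0.09 for CD44 in subclone 1 over the parent, and -0.15 for CD44 and -0.63 for ANPEP between the subclones. GAPDH gave -0.16 for CD44 between the subclones. Over the parent, ANPEP ranged between 2.24 and 2.39 for subclone 1 and between 1.56 and 1.68 for subclone 2. CD24 ranged between -2.56 and -0.89 and between -2.60 and -0.90. The doubled reads of CD24 were an alternative chosen after seeing the data.

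The number of markers at least 2-fold higher or lower moved with the pseudocount and threshold by their construction. With a pseudocount of 0.01, 2 were above the parent in subclone 1, 3 were above and 2 below it in subclone 2, and 2 were higher and 1 lower between the subclones. With a pseudocount of 1, 0 were lower in either subclone and 0 higher between the subclones. At 1.5-fold, 2 were higher and 2 lower in each subclone, and 2 lower between the subclones. Apart from ANPEP between the subclones, the markers added by these settings were EPCAM, THY1, SALL4 or LIN28B. Each of these had 3 reads or fewer in every library, so no change is read from them. No share over all 16149 listed genes was computed at these settings. The 11370 genes counted below hold only 3 of the markers.

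For the 11370 genes that averaged 1 RPKM or more, the counts higher and lower were 557 and 207 in subclone 1, 606 and 246 in subclone 2, and 161 and 158 between the subclones. A pseudocount of 0.01 gave 601 and 231, 643 and 264, and 169 and 179. A pseudocount of 1 gave 347 and 117, 380 and 150, and 80 and 77. No filter gave 1523 and 884, 1553 and 941, and 842 and 902, and a minimum mean of 5 RPKM gave 233 and 71, 253 and 93, and 43 and 46. The lower threshold of 1.5-fold gave 1317 and 848, 1444 and 830, and 540 and 467. Division by ACTB gave 328 lower in subclone 1, with the share of higher genes going from 72.9% to 57.8%, and from 50.5% to 63.9% between the subclones (62.6% with GAPDH).

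No paired analysis was possible because each line has 1 library. Leaving out a library would have emptied a line.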
